A study of Mus musculus with 16 samples.

Results

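The Toll-like receptor (Tlr) genes were described across 7 groups of sorted mouse macrophages that differ in Bhlhe40, a helix-loop-helix transcription factor that represses many of the genes it binds. The 10 listed genes were Tlr1, Tlr2, Tlr3, Tlr4, Tlr5, Tlr6, Tlr7, Tlr8, Tlr9 and Tlr13. They were found by gene symbol among 19938 genes with a probe set of a single symbol. Of them, 9 had 1 such probe set each, and all 9 were bright enough on at least 2 arrays to enter the tests, which covered 11634 genes. Tlr5 was not analysed here. Tlr12, which was not on the list, read between 3.06 and 4.03 on the arrays of every group, below every array's median, and was not tested.

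Toll-like receptors are membrane proteins that recognise conserved molecules of microbes and start inflammatory signalling through adaptor proteins with a shared cytoplasmic domain. Those at the cell surface recognise lipids and proteins of microbial walls: Tlr4 with its partner Ly96 (MD-2) recognises lipopolysaccharide, and Tlr2 recognises lipoproteins as a heterodimer with either Tlr1 or Tlr6. Those in endosomes recognise nucleic acids: Tlr3 double-stranded RNA, Tlr7 and Tlr8 single-stranded RNA, Tlr9 unmethylated CpG DNA, and Tlr13, found in mice and not in humans, a stretch of bacterial ribosomal RNA. Resident macrophages of the lung and the peritoneal cavity carry many of these receptors as first sentinels of infection.

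Large peritoneal macrophages (LPM), which make up most of the macrophages resident in the peritoneum, were sorted from lavage of male C57BL/6 mice. IL-4c, a complex of interleukin-4 that makes resident macrophages divide and take on the alternatively activated state, was injected into some of the mice on days 0 and 2 before sacrifice on day 4. Their LPM arrays comprised 2 arrays of Bhlhe40-/- mice (KO), 2 of mice labelled Bhlhe40LysM and 2 of Bhlhe40+/+ mice (WT). The label Bhlhe40LysM stands for a floxed (fl/fl) Bhlhe40 gene together with LysM-Cre, a Cre recombinase made from the lysozyme M locus in myeloid cells. Untreated mice gave 3 KO and 3 WT arrays of LPM, and 2 KO and 2 WT arrays of alveolar macrophages (AM), the macrophages that live in the lung's airspaces, sorted from lung digests. The label Bhlhe40-/- stands for loss of the gene in all cells, and the LysM arrays were set against Bhlhe40+/+ mice without the Cre or the floxed allele, so the deletion, the Cre and the floxed allele cannot be told apart. The labels give no age and do not tell if a replicate was 1 mouse or a pool, so p-values reflect only how these arrays spread, and the small number of arrays limits the precision.

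Values are log2 signals of 1 probe set per gene, and a difference of 1 on this scale is a doubling. The arrays had median signals of 4.79 to 4.93, and replicates of a group had a Pearson r of 0.989 to 0.995 over probe sets (probe sets are not independent of each other). Bhlhe40 itself was lower in KO than in WT in naive AM (log2 difference -2.17), naive LPM (-1.89) and IL-4c LPM (-0.93), all called. A signal remained on KO arrays, at 7.53 and 7.75 in naive AM, 6.79, 6.50 and 7.11 in naive LPM and 8.01 and 7.90 in IL-4c LPM, and within KO LPM it was higher after IL-4c by 1.16 (limma adjusted p = 0.000109). Whether the probe set reads the part deleted in KO is not stated in the labels. On the arrays labelled Bhlhe40LysM it read 8.75 and 8.83, against 8.77 and 8.99 in WT (-0.09, limma adjusted p = 0.837), so the probe set showed no loss there. The floxed part is not stated either. All 8 LPM markers with a probe set (among them Gata6, Timd4 and Icam2) lay above the array median in every LPM group. All 8 AM markers (among them Siglecf and Itgax) did so in AM, and 3 to 5 of them also in the LPM groups. On LPM arrays the LPM marker list averaged 10.19 to 11.23, and on AM arrays 4.66 to 5.01. The AM marker list averaged 10.13 to 10.46 on AM arrays and 4.75 to 6.35 on LPM arrays. Marco did not separate the tissues, at 9.22 in naive KO LPM and 8.40 in naive WT LPM, against 9.74 and 8.44 in AM. B cell markers, as a mean of 7 probe sets, read 3.87 to 4.11 in IL-4c LPM, 4.38 to 5.13 in naive KO LPM, 4.60 to 4.71 in naive WT LPM and 3.97 to 4.09 in AM.

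The Tlr1 and Tlr6 genes lie next to each other on chromosome 5, and the 250 bases before 2 annotated starts of each are shown. They were chosen because Tlr1 is the receptor with the largest genotype difference and Tlr6 its closest neighbour and relative. All these starts are on the minus strand, and the sequences are from RefSeq, build GRCm38.p6. Both Tlr6 stretches lie inside the annotated gene, 64953092 to 64970942. The bases before its upper end, where a minus-strand gene begins, were neither shown nor searched. Capitals mark the canonical E-box CACGTG, the hexamer that Bhlhe40 and related proteins bind, and GAGGAAGT, the core bound by the macrophage factor PU.1.
Mouse Tlr1, start 1, chr5:64933559-64933808: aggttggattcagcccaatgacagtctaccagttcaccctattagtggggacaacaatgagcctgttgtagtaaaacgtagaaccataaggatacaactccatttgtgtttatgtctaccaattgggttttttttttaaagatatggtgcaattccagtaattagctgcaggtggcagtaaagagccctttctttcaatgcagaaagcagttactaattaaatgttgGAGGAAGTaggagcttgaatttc
Mouse Tlr1, start 2, chr5:64932700-64932949: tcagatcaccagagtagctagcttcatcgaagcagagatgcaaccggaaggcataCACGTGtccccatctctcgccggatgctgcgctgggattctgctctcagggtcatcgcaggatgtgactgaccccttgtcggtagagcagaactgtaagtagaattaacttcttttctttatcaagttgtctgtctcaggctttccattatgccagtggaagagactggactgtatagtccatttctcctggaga
Mouse Tlr6, start 1, chr5:64959167-64959416: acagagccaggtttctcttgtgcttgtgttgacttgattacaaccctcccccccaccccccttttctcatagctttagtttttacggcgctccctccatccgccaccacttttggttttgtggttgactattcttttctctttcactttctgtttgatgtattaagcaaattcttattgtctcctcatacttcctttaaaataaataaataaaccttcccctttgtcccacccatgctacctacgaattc
Mouse Tlr6, start 2, chr5:64960049-64960298: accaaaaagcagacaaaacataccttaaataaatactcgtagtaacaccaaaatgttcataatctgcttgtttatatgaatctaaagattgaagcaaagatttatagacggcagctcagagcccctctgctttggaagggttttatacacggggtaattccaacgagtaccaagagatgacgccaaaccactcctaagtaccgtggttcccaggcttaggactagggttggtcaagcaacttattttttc

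Both motifs were searched on both strands in windows reaching 250 bases before and 50 bases after each start. Such windows existed for 8 of the 10 receptor genes, 10 windows in all. CACGTG was found in 1 of the 10, that of the second Tlr1 start, where its first base lies at position -195, at chr5:64932889-64932894. Over all genes 7.15% of 32851 such windows held CACGTG. GAGGAAGT was found in windows of 2 receptor genes, at position -23 before the first Tlr1 start and, on the opposite strand, at position 11 after the Tlr9 start; 3.2% of all windows held it. These matches describe letters and do not show that a factor binds, and the 2 motifs do not overlap in any of the windows shown.

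**Figure D1:**
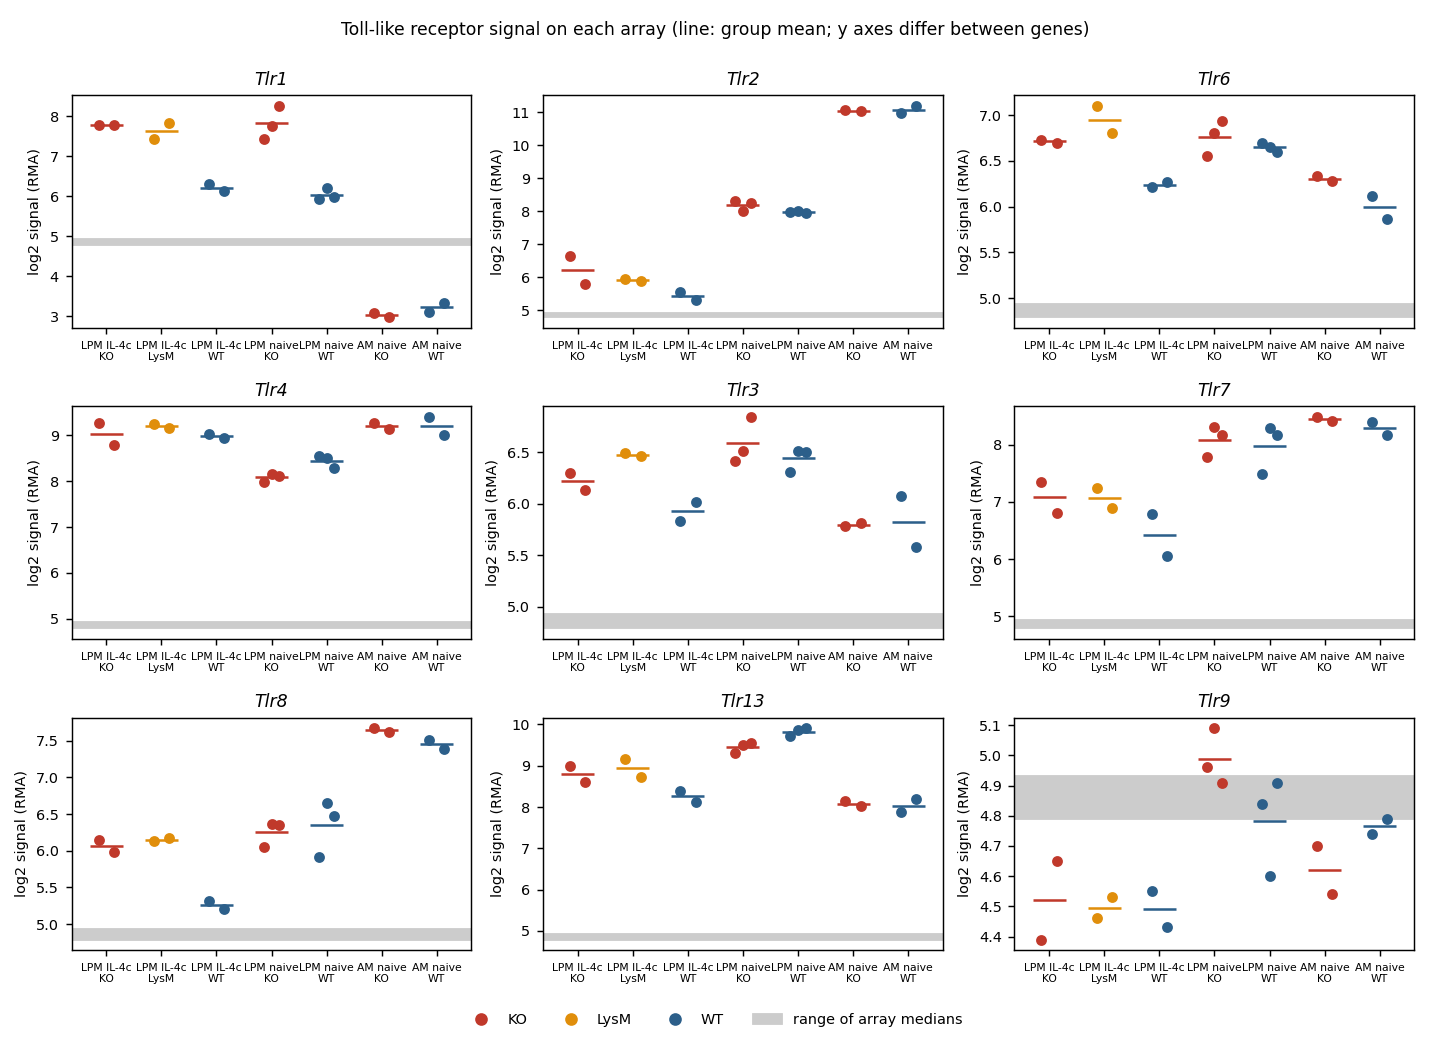
Log2 signal (y axis, RMA, 1 point per array) of the 9 measured Toll-like receptor genes in 7 groups (x axis); the short line is the group mean and the grey band spans the array medians, 4.79 to 4.93. The KO and LysM points of Tlr1 lie between 7.44 and 8.26 in LPM, those of WT between 5.92 and 6.30, and all AM points between 2.97 and 3.33.

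The first comparison asks how loss of Bhlhe40 changed the receptors in resident macrophages of untreated mice. Tlr1, the partner with which Tlr2 senses triacylated lipoproteins, was the only one of the 9 receptor genes called in naive LPM. Its signal was 7.44, 7.76 and 8.26 in KO LPM, against 5.92, 6.21 and 5.98 in WT LPM. The lowest KO array lay well above the highest WT array. Tlr1 was 3.45-fold higher in KO (log2 difference 1.79 ± 0.17 SE, 95% interval 1.42 to 2.15, limma adjusted p = 3.03e-05), while 0.533% of all tested genes were called higher in this comparison. The difference kept its call under all 14 alternatives run and ranged over them between 1.57 and 1.98.

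None of the other 8 receptor genes was called in naive LPM. Tlr13 read 9.31, 9.50 and 9.56 in KO LPM, against 9.71, 9.86 and 9.91 in WT LPM. Tlr4 read 7.99, 8.16 and 8.12 in KO LPM, against 8.55, 8.50 and 8.28 in WT LPM. For both receptors every KO array lay under every WT array, but the differences of -0.37 (SE 0.15) and -0.35 (SE 0.14) had limma adjusted p = 0.232 and adjusted p = 0.243. Tlr6, whose product takes the place of Tlr1 in the other Tlr2 heterodimer, read 6.55, 6.80 and 6.94 in KO LPM, against 6.70, 6.65 and 6.60 in WT LPM. Those ranges overlap, and its difference was 0.11 with a 95% interval of -0.15 to 0.37. Differences of Tlr2, Tlr3, Tlr7, Tlr8 and Tlr9 lay between -0.09 and 0.22. The median over the 9 receptor genes was 0.11, against -0.033 over all genes tested.

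B cell markers and Tlr1 were set side by side on each array. On KO LPM replicates 1, 2 and 3 the B cell marker mean was 5.13, 4.90 and 4.38, beside Tlr1 signals of 7.44, 7.76 and 8.26. On WT LPM replicates 1, 2 and 3 it was 4.71, 4.60 and 4.60, beside Tlr1 signals of 5.92, 6.21 and 5.98. In this comparison 0 of 5 tested B cell markers and 0 of 2 T and NK cell markers were called. Of markers of monocytes, dendritic cells and small peritoneal macrophages 0 of 4 were called. Among all genes 0.533% were called higher and 1.35% lower, so these counts do not show that the sorted cells were alike. Of 5 neutrophil markers Csf3r, the receptor for the growth factor G-CSF that macrophages also carry, was called lower (-0.85). Of 8 AM markers Pparg was called higher and Chil3 lower. The part of these markers in the Tlr1 difference was not tested. In sorted cells, a change in the share of cells that carry a transcript and a change in its amount per cell cannot be told apart.

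In naive AM none of the 9 receptor genes was called between KO and WT, where 0.12% of all tested genes were called. At an unadjusted p under 0.05 limma gave 1 receptor gene and 620 of all genes. That gene was Tlr6, which read 6.33 and 6.28 in KO AM, against 6.12 and 5.86 in WT AM. The difference of 0.32 (SE 0.15) had an adjusted p of 0.934 in limma. Tlr1 read 3.09 and 2.97 in KO AM, against 3.11 and 3.33 in WT AM. These values lie under the upper range of 1035 olfactory receptor probe sets, whose 95th percentile was 4.37 to 4.68 on the arrays and serves here as a level for genes that macrophages do not use. A genotype difference of Tlr1 in AM could therefore not be read from this probe set.

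The interaction, the KO minus WT difference in naive LPM minus that in naive AM, was called for 1 of the 9 receptor genes, Tlr1, where 0.249% of all genes were called. Because its AM term is background signal, this call does not show that the genotype effect on Tlr1 differs between the tissues. The other 8 receptor genes had interaction values between -0.43 and 0.35, none called.

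**Figure D2:**
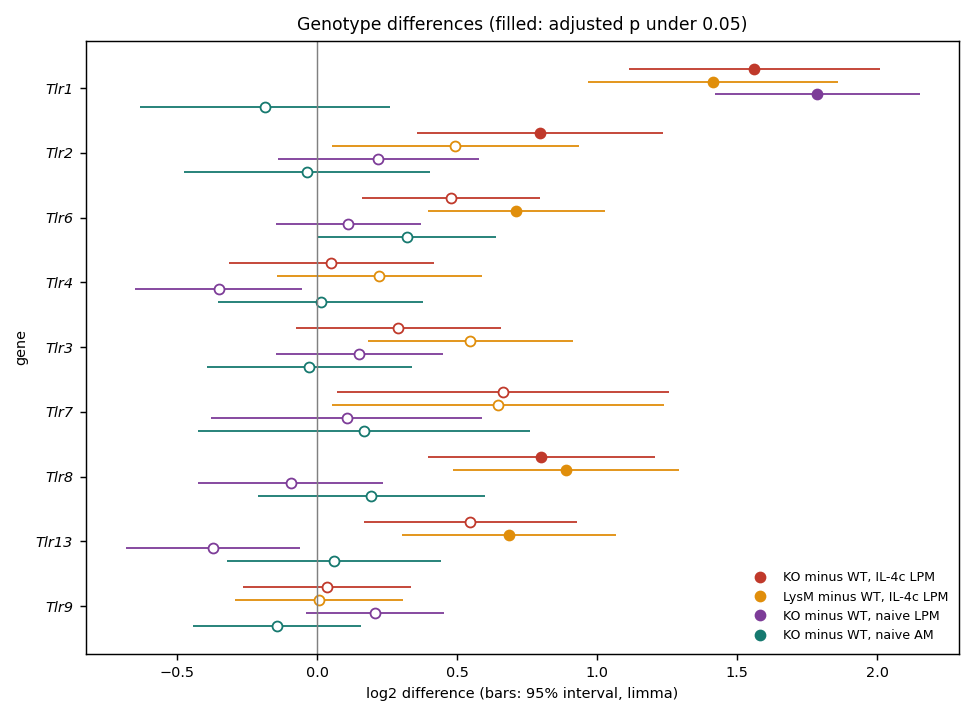
Log2 differences between genotypes (x axis) of the 9 Toll-like receptor genes (y axis), with 95% intervals from limma; filled points have an adjusted p under 0.05. Tlr1 lies at 1.56, 1.41 and 1.79 in the LPM comparisons; its AM value of -0.19 rests on background signal. In the IL-4c comparisons all 9 points lie above 0.

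The next comparisons ask what loss of Bhlhe40 did in LPM of IL-4c-treated mice, and whether KO and LysM arrays differed. Tlr1 read 7.77 and 7.79 in KO LPM and 7.44 and 7.82 in LysM LPM, against 6.30 and 6.13 in WT LPM. Neither mutant group overlaps WT. Tlr1 was 2.95-fold higher in KO (log2 difference 1.56 ± 0.21 SE, limma adjusted p = 0.000544) and 2.67-fold higher in LysM (1.41 ± 0.21, adjusted p = 0.000819). Both differences kept their calls under all 13 alternatives, between 1.48 and 1.65 in KO and between 1.22 and 1.61 in LysM. These comparisons share their WT arrays, so a value of the WT arrays enters both.

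In KO, 3 of the 9 receptor genes were called higher and 0 lower, where 2.12% of all genes were called higher and 1.5% lower. Besides Tlr1 these were Tlr8 and Tlr2. In LysM, 4 were called higher and 0 lower, where 4.8% of all genes were called higher and 3.87% lower: Tlr1, Tlr8, Tlr6 and Tlr13. All 9 differences lay above 0 in both comparisons, with a median of 0.547 in KO and 0.647 in LysM, against medians over all genes of -0.017 and -0.011.

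Tlr8, an endosomal receptor for single-stranded RNA, read 6.14 and 5.98 in KO and 6.13 and 6.17 in LysM, against 5.32 and 5.20 in WT. No mutant array came near the WT arrays. The difference was 0.80 in KO (SE 0.19, limma adjusted p = 0.0291) and 0.89 in LysM (SE 0.19, adjusted p = 0.00915). The KO call was lost when any of the 4 arrays was left out, at 0.86 and 0.74 without WT replicates 1 and 2 and at 0.72 and 0.88 without KO replicates 1 and 2, and at 0.80 with only the compared arrays in the fit (adjusted p = 0.0628). The LysM call was lost without WT replicate 2, at 0.83, and without LysM replicate 1, at 0.91.

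Tlr2, the shared chain of the lipoprotein receptors, read 6.66 and 5.79 in KO and 5.96 and 5.89 in LysM, against 5.55 and 5.31 in WT. The KO arrays differ from each other by more than KO replicate 2 differs from WT. The difference was 0.80 in KO (SE 0.21, limma adjusted p = 0.0457) and 0.49 in LysM (adjusted p = 0.165). The KO call held under 7 of 13 alternatives. It was lost without WT replicate 1 or 2, at 0.91 and 0.68, and without KO replicate 1, at 0.36 (limma adjusted p = 0.406). It was also lost with arrays centred on their medians (0.79, adjusted p = 0.072), with no filter on dim genes (0.80, adjusted p = 0.0589) and with only the compared arrays in the fit (0.80, adjusted p = 0.225).

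Tlr6 read 6.73 and 6.70 in KO and 7.10 and 6.80 in LysM, against 6.21 and 6.27 in WT. Both mutant groups lay above WT. The difference was 0.71 in LysM (SE 0.15, limma adjusted p = 0.00803) and 0.48 in KO (SE 0.15, adjusted p = 0.0946). The LysM call was lost without WT replicate 2, at 0.74, without LysM replicate 1, at 0.56, and with only the compared arrays in the fit (0.71, adjusted p = 0.0935).

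Tlr13 read 9.0 and 8.61 in KO and 9.16 and 8.73 in LysM, against 8.40 and 8.13 in WT. In naive LPM the KO arrays had been under WT, and here they lay above. The difference was 0.69 in LysM (SE 0.18, limma adjusted p = 0.0263) and 0.55 in KO (SE 0.18, adjusted p = 0.113). The LysM call was lost without WT replicate 2, at 0.55, without LysM replicate 1, at 0.47, and with only the compared arrays in the fit (0.69, adjusted p = 0.145). With the replicate number as a block among the IL-4c arrays only, an alternative chosen after seeing the data, the KO difference was called too (0.55, adjusted p = 0.0381).

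The remaining 4 receptor genes were called in neither comparison. Tlr7, the RNA sensor encoded beside Tlr8, read 7.35 and 6.81 in KO and 7.24 and 6.89 in LysM, against 6.78 and 6.05 in WT. KO and LysM overlap each other, and neither overlaps WT, although KO replicate 2 lies close to WT replicate 1. In each of these groups replicate 1 read higher than replicate 2. The differences of 0.66 in KO and 0.65 in LysM had limma adjusted p = 0.234 and adjusted p = 0.178, and with the block among the IL-4c arrays only adjusted p = 0.115 and adjusted p = 0.0872. Tlr3, the sensor of double-stranded RNA, read 6.30 and 6.13 in KO and 6.49 and 6.46 in LysM, against 5.83 and 6.02 in WT, with differences of 0.29 and 0.55. The LysM difference of Tlr3 had a limma adjusted p of 0.0607. Differences of Tlr4 were 0.05 in KO and 0.22 in LysM, and those of Tlr9 were 0.04 and 0.01.

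No receptor gene was called between KO and LysM, where limma called 0.0172% of all genes. At an unadjusted p under 0.05 limma gave 0 receptor genes and 1024 of all genes. The differences ran from -0.26 to 0.30, and that of Tlr1 was 0.15 with a 95% interval of -0.30 to 0.60. A p that misses the threshold does not show that the groups are alike. Of markers of other cells, 0 of 5 B cell and 0 of 2 T and NK cell markers were called in KO or LysM against WT. Of monocyte, dendritic cell and small peritoneal macrophage markers 0 of 4 were called. Among all genes 2.12% were called higher and 1.5% lower in KO, and 4.8% and 3.87% in LysM. These marker counts do not show that the sorted cells were alike. Of 5 tested neutrophil markers 1 was called higher and 0 lower, both in KO and in LysM. Csf3r was higher in KO (1.07) and LysM (1.29). Of the LPM markers Cxcl13 was higher in both (1.43 and 2.17) while Timd4 was lower in LysM (-0.86). Of the AM markers Pparg was higher in both (1.04 and 0.92) and Itgax in LysM (0.64). The part of these genes in the receptor differences was not tested.

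The third set of comparisons asks how the receptors in LPM differed between IL-4c-treated and naive mice. The naive mice were untreated, so IL-4c, the injection and any batch that goes with them cannot be told apart. In KO LPM 5 of the 9 receptor genes were called, 4 lower and 1 higher after IL-4c. Over all genes 15.4% were called lower and 21.9% higher. In WT LPM 7 of 9 were called, 6 lower and 1 higher, where 19.2% of all genes were called lower and 22% higher. Tlr2, Tlr7 and Tlr13 fell and Tlr4 rose in both genotypes, while Tlr1 was called in neither.

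Tlr2 read 6.66 and 5.79 in IL-4c KO LPM, against 8.31, 8.02 and 8.27 in naive KO LPM. In WT it read 5.55 and 5.31 after IL-4c, against 7.99, 8.0 and 7.96 in naive LPM. The groups are far apart in both genotypes. Tlr2 fell by 1.97 in KO (SE 0.19, limma adjusted p = 1.92e-06) and by 2.55 in WT (SE 0.19, adjusted p = 8.97e-08), the largest IL-4c change among the receptor genes in each genotype.

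Tlr7 read 7.35 and 6.81 in IL-4c KO LPM, against 7.79, 8.31 and 8.16 in naive KO LPM. In WT it read 6.78 and 6.05 after IL-4c, against 7.48, 8.29 and 8.17 in naive LPM. Every IL-4c array lay under every naive array of its genotype. Tlr7 fell by 1.0 in KO (SE 0.25, limma adjusted p = 0.00586) and by 1.56 in WT (SE 0.25, adjusted p = 0.000152). Without IL-4c KO replicate 2 the KO difference was -0.74 and not called.

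Tlr13 read 9.0 and 8.61 in IL-4c KO LPM, against 9.31, 9.50 and 9.56 in naive KO LPM. In WT it read 8.40 and 8.13 after IL-4c, against 9.71, 9.86 and 9.91 in naive LPM. The gap is wide in WT and narrower in KO, where IL-4c replicate 1 lies close to the lowest naive array. Tlr13 fell by 0.65 in KO (SE 0.16, limma adjusted p = 0.00571) and by 1.57 in WT (SE 0.16, adjusted p = 2.36e-06). Without IL-4c KO replicate 2 the KO difference was -0.45 and not called.

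Tlr8 read 6.14 and 5.98 in IL-4c KO LPM, against 6.05, 6.37 and 6.35 in naive KO LPM. In WT it read 5.32 and 5.20 after IL-4c, against 5.92, 6.65 and 6.48 in naive LPM. The KO groups overlap and the WT groups do not. Tlr8 fell by 1.09 in WT (SE 0.17, limma adjusted p = 0.000125), and the KO difference was -0.20 (95% interval -0.56 to 0.17, adjusted p = 0.406). The test of whether the genotypes differ in this is the interaction, in which Tlr8 was not called.

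Tlr4, the lipopolysaccharide receptor, moved the other way. It read 9.28 and 8.78 in IL-4c KO LPM, against 7.99, 8.16 and 8.12 in naive KO LPM. In WT it read 9.02 and 8.94 after IL-4c, against 8.55, 8.50 and 8.28 in naive LPM. All IL-4c arrays lay above the naive arrays. Tlr4 rose by 0.93 in KO (SE 0.16, limma adjusted p = 0.000292) and by 0.53 in WT (SE 0.16, adjusted p = 0.0127). The WT call was lost without naive WT replicate 3, at 0.45, and without IL-4c WT replicate 1, at 0.49.

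Smaller changes were called for 3 further receptor genes, each in a single genotype. Tlr3 fell by 0.51 in WT (SE 0.16, limma adjusted p = 0.0156), where it read 5.83 and 6.02 after IL-4c, against 6.31, 6.51 and 6.50 in naive LPM; without IL-4c WT replicate 1 the value was -0.42 and not called. Its KO difference was -0.37, not called, and was called at -0.46 without naive KO replicate 1. Tlr6 fell by 0.41 in WT (SE 0.14, adjusted p = 0.0248), with 6.21 and 6.27 after IL-4c, against 6.70, 6.65 and 6.60 in naive LPM. Those groups do not overlap, but the call was lost without naive WT replicate 1 (-0.38), naive WT replicate 2 (-0.41), IL-4c WT replicate 1 (-0.38) or IL-4c WT replicate 2 (-0.43). Tlr9 fell by 0.46 in KO (SE 0.13, adjusted p = 0.0104), with 4.39 and 4.65 after IL-4c, against 4.96, 5.09 and 4.91 in naive LPM. Without IL-4c KO replicate 1 that value was -0.33 and not called. In WT Tlr9 was not called at -0.29, and was called at -0.38 without naive WT replicate 2.

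Tlr9 lies close to the array medians in naive LPM and under them on the IL-4c arrays. There it read 4.39 to 4.65, beside an olfactory receptor 95th percentile of 4.37 to 4.44, so its fall ends near background signal. Tlr9 is also made by B cells. The B cell marker mean was 4.11 and 4.03 in IL-4c KO LPM, against 5.13, 4.90 and 4.38 in naive KO LPM. In WT it was 4.02 and 3.87 after IL-4c, against 4.71, 4.60 and 4.60 in naive LPM. Of 5 tested B cell markers, 4 were called lower after IL-4c in KO and 3 in WT, and 0 of 7 lay above the array median as a group mean in any IL-4c group. Markers of monocytes, dendritic cells and small peritoneal macrophages moved too, with 1 of 4 higher and 1 lower in KO and 2 of 4 lower in WT. Of 2 markers of plasmacytoid dendritic cells, which carry Tlr7 and Tlr9, 1 was lower in KO, while 1 was higher and 1 lower in WT. Of 5 tested neutrophil markers, 1 was higher and 1 lower in KO, while 0 were higher and 2 lower in WT. Among these markers Csf3r fell by 1.82 in KO and by 3.74 in WT. The part of such cells in the fall of Tlr9 or of the other receptors was not tested.

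Tlr1 read 7.77 and 7.79 in IL-4c KO LPM, against 7.44, 7.76 and 8.26 in naive KO LPM, and 6.30 and 6.13 in IL-4c WT LPM, against 5.92, 6.21 and 5.98 in naive WT LPM. Its IL-4c arrays fall within or beside the naive range of each genotype. The differences were -0.05 in KO (95% interval -0.45 to 0.36) and 0.18 in WT (-0.23 to 0.59).

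**Figure D3:**
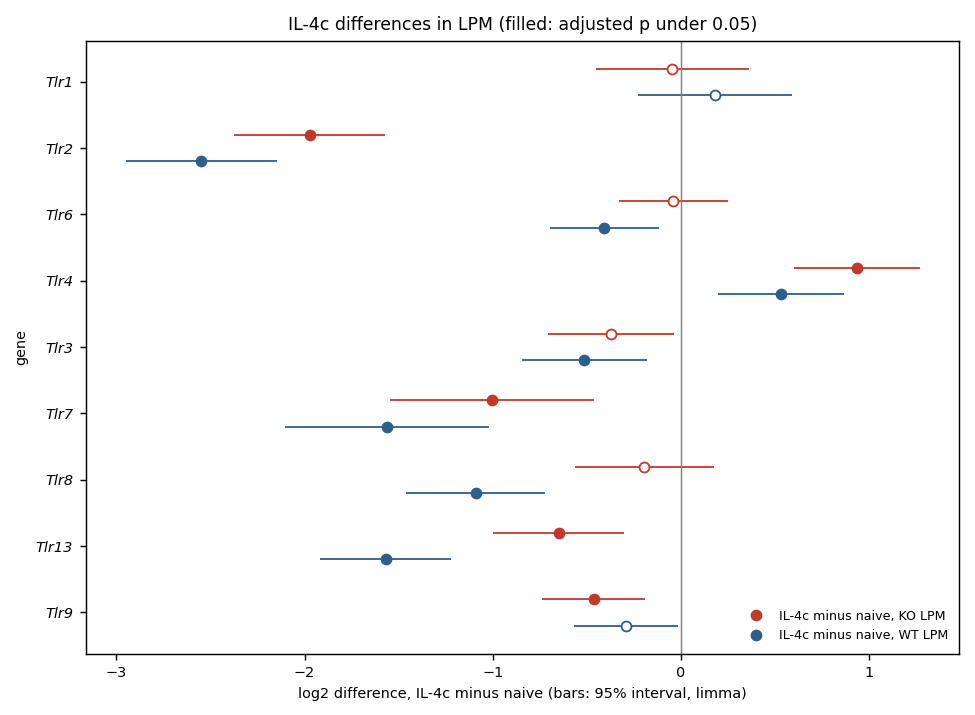
Log2 difference, IL-4c minus naive LPM (x axis), of each Toll-like receptor gene (y axis) in KO (upper point of each pair) and WT (lower point), with 95% intervals from limma and filled points for an adjusted p under 0.05. Tlr2 lies at -1.97 in KO and -2.55 in WT, Tlr4 at 0.93 and 0.53, and Tlr13 at -0.65 and -1.57.

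The interaction, the KO minus WT difference under IL-4c minus that in naive LPM, was called for 0 of the 9 receptor genes, where limma called 0.55% of all genes. At an unadjusted p under 0.05 limma gave 3 receptor genes and 1521 of all genes. The 3 were Tlr13 at 0.92 (SE 0.23, adjusted p = 0.0849), Tlr8 at 0.90 (SE 0.25, adjusted p = 0.109) and Tlr2 at 0.58 (SE 0.27, adjusted p = 0.376). Leaving out IL-4c KO replicate 2 brought calls for Tlr13 at 1.12 and Tlr2 at 1.01, and leaving out naive WT replicate 1 brought a call for Tlr8 at 1.11. The interaction of Tlr1 was -0.23 (95% interval -0.80 to 0.35).

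The last comparison sets naive LPM against naive AM within each genotype. LPM came from lavage and AM from lung digests, so tissue and way of isolation cannot be told apart. In KO 8 of 9 receptor genes were called, 5 higher in LPM and 3 lower, where 17.3% of all genes were called higher and 22.8% lower. In WT 7 of 9 were called, 4 higher and 3 lower, where 21.2% were called higher and 17.1% lower. In both genotypes LPM had more Tlr1, Tlr13, Tlr3 and Tlr6 signal and less Tlr2, Tlr8 and Tlr4 signal than AM.

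Tlr1 was the most different receptor gene in KO, with 7.44, 7.76 and 8.26 in LPM, against 3.09 and 2.97 in AM. In WT it had 5.92, 6.21 and 5.98 in LPM, against 3.11 and 3.33 in AM. Since AM read no higher than olfactory receptor probe sets, each fold is a lower limit, computed against the 95th percentile of those probe sets on each AM array. Tlr1 was at least 10.3-fold higher in LPM in KO and at least 2.88-fold higher in WT. These limits were not tested. On the signals as read, limma gave 4.79 in KO (adjusted p = 5.49e-12) and 2.82 in WT (adjusted p = 4.28e-09).

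Tlr2 showed the opposite. It read 8.31, 8.02 and 8.27 in KO LPM, against 11.07 and 11.05 in KO AM. In WT it read 7.99, 8.0 and 7.96 in LPM, against 10.98 and 11.20 in AM. The replicates lie close together and the tissues far apart. Tlr2 was lower in LPM, with a log2 difference of -2.86 in KO (SE 0.19, limma adjusted p = 2.89e-09) and of -3.11 in WT (SE 0.19, adjusted p = 1e-09).

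Tlr8 and Tlr4 were also lower in LPM. Tlr8 read 7.67 and 7.62 in KO AM and 7.51 and 7.39 in WT AM, above each naive LPM array of the same genotype given earlier. Its LPM minus AM differences were -1.39 in KO and -1.10 in WT. Tlr4 read 9.28 and 9.15 in KO AM and 9.40 and 9.0 in WT AM, with differences of -1.12 and -0.75. Limma adjusted p-values for Tlr4 and Tlr8 ran from 6.46e-06 to 0.00104.

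Neutrophil markers were lower in LPM by their mean log2 signal, but not by their summed linear signal. As a mean of 9 probe sets they read 4.47 to 4.58 in KO LPM, against 5.12 to 5.21 in KO AM. In WT they read 4.53 to 4.65 in LPM, against 4.94 to 4.98 in AM. The linear sums overlapped in KO (587 to 656 in LPM and 592 to 661 in AM). In WT the sum was higher in LPM, at 871 to 962, against 535 to 562 in AM. Of 5 tested, 3 were called lower in LPM in KO (Mmp8 at -3.63, Cxcr2 at -1.99 and S100a9 at -1.63) and 2 in WT (Mmp8 at -4.03 and Cxcr2 at -1.93), while Csf3r was higher in both (0.81 and 2.95). Ly6g, which defines mouse neutrophils, averaged 2.52 to 2.96 in the naive groups, under the olfactory receptor level. The part of these genes in the receptor differences was not tested.

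Tlr13 was higher in LPM. It read 8.15 and 8.02 in KO AM and 7.87 and 8.19 in WT AM, all under the naive LPM arrays, and the differences were 1.37 in KO and 1.80 in WT (limma adjusted p = 3.9e-06 and adjusted p = 1.51e-07). Tlr3 differed by 0.80 in KO and 0.62 in WT. In AM Tlr3 read 5.78 and 5.81 in KO and 6.07 and 5.58 in WT, and without WT AM replicate 2 the WT difference was 0.37 and not called. Tlr6 differed by 0.45 in KO and 0.66 in WT. The KO call of Tlr6 was lost without KO AM replicate 1 (0.47) or 2 (0.43) or without KO LPM replicate 3 (0.36), and with the arrays centred on their medians (0.36).

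Tlr9 was called higher in LPM in KO at 0.37 (limma adjusted p = 0.0324), with 4.70 and 4.54 in KO AM, and was not called in WT at 0.02, with 4.74 and 4.79 in WT AM. These values lie close to the array medians. The KO call was lost without KO AM replicate 1 (0.45) or 2 (0.29) and without KO LPM replicate 1 (0.38) or 2 (0.32), and, at values of 0.28 to 0.37, with a repeated quantile normalization, centred arrays, a variance trend, the replicate block or the compared arrays alone. Of 5 tested B cell markers, 4 were called higher in LPM than AM in KO and 3 in WT, and their part in the Tlr9 value was not tested. Tlr7 was called in neither genotype: it read 8.48 and 8.41 in KO AM and 8.40 and 8.16 in WT AM, and differed by -0.36 in KO (95% interval -0.90 to 0.18) and -0.30 in WT (-0.84 to 0.24).

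**Figure D4:**
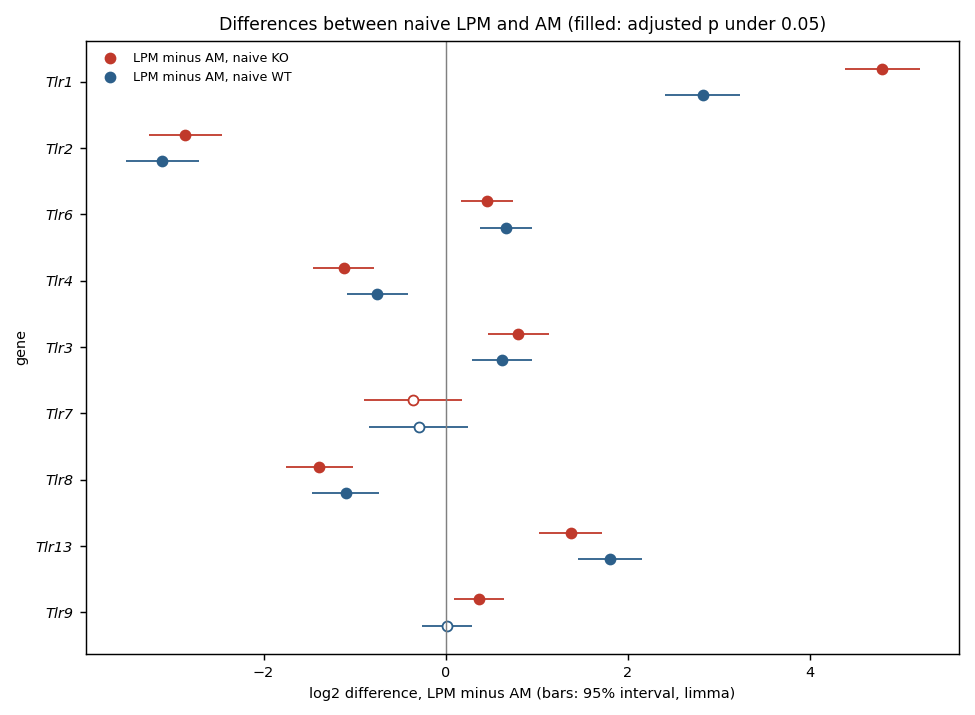
Log2 difference, naive LPM minus naive AM (x axis), of each Toll-like receptor gene (y axis) in KO (upper point) and WT (lower point), with 95% intervals from limma and filled points for an adjusted p under 0.05. Tlr1 lies at 4.79 in KO and 2.82 in WT and Tlr2 at -2.86 and -3.11; the Tlr1 values use AM signals at background.

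Ordered by group mean, Tlr1 fell into 3 levels. Naive KO LPM (7.82), IL-4c KO LPM (7.78) and IL-4c LysM LPM (7.63) overlapped in turn, IL-4c WT LPM (6.22) and naive WT LPM (6.04) overlapped, and AM stood last (3.03 in KO and 3.22 in WT). Tlr2 was highest in AM (11.06 in KO and 11.09 in WT, overlapping), followed by naive LPM (8.20 in KO and 7.98 in WT) and IL-4c LPM (6.23 in KO, overlapping 5.93 in LysM, and 5.43 in WT). IL-4c WT LPM had the lowest mean of the 7 groups for Tlr2, Tlr7 and Tlr8. For Tlr9 the lowest means were those of IL-4c KO (4.52), LysM (4.50) and WT (4.49) LPM, which overlapped in turn. For Tlr13 the order began with naive WT LPM (9.83) and ended with WT AM (8.03), with IL-4c WT LPM (8.26) overlapping AM.

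Pairs of receptor genes can be compared over the 7 group means, which share arrays and hold tissue, treatment and genotype at once. Tlr2 and Tlr8 had the highest Pearson r, 0.949, followed by Tlr2 and Tlr7 at 0.915 and Tlr3 and Tlr13 at 0.913. Tlr1 and Tlr6 had r = 0.832, and Tlr1 and Tlr2, partners in 1 heterodimer, had r = -0.838. Among all tested genes the patterns most like that of Tlr1 over the 7 means were Cbr2 (r = 0.996), Ift20 (0.995) and Shank3 (0.991). Cbr2, a carbonyl reductase, averaged 8.47 in IL-4c KO LPM, 8.37 in IL-4c LysM LPM and 6.94 in IL-4c WT LPM, 8.25 in naive KO LPM and 7.12 in naive WT LPM, and 4.82 in KO AM and 5.05 in WT AM. For Tlr2 the nearest were Filip1l (0.999), Ube2j1 (0.998) and Ccnl1 (0.997). For Tlr7 they were St7l (0.998), Nf1 (0.996) and Irf8 (0.995), the last a transcription factor of the myeloid lineage. The nearest gene to Tlr4 was Smcr8 (0.998), to Tlr3 Csad (0.992), to Tlr6 Rgl2 (0.994), to Tlr8 Btg1 (0.993), to Tlr9 Nectin4 (0.995) and to Tlr13 Plxna4 (0.985). With 7 points and 11634 genes such values arise readily, and they are given as descriptions.

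The receptor genes are spread over several chromosomes in GRCm38.p6, with 2 pairs of close neighbours. Tlr1 (Entrez 21897, chromosome 5, 64924680 to 64933600) lies 19491 bases from Tlr6 (Entrez 21899, 64953092 to 64970942). On the X chromosome Tlr8 (Entrez 170744, 167241123 to 167264329) lies 39050 bases from Tlr7 (Entrez 170743, 167303380 to 167330574), and Tlr13 (Entrez 279572) lies at 106143275 to 106160493. Tlr2 (Entrez 24088) is on chromosome 3, 83836272 to 83841824, and Tlr4 (Entrez 21898) on chromosome 4, 66827551 to 66846581. Tlr3 (Entrez 142980) is on chromosome 8, 45395665 to 45411075, and Tlr9 (Entrez 81897) on chromosome 9, 106222598 to 106226876.

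The genes that flank the Tlr1 and Tlr6 pair are Klf3, a Krueppel-like repressor, and Fam114a1, which overlaps Tlr6. Neither was called in any genotype comparison. Klf3 differed by -0.27 in naive LPM (limma adjusted p = 0.288) and 0.15 in IL-4c LPM between KO and WT, and Fam114a1 by -0.28 (adjusted p = 0.384) and 0.18. Tlr1 and Tlr6 are paralogues with similar coding sequence, and hybridisation of one transcript to the other's probes was not tested; in naive LPM their KO minus WT differences were 1.79 and 0.11. Among tested genes beside the other receptors, only Atp7a, the copper transporter gene next to Tlr13, was called between genotypes. It was higher by 0.78 in KO (limma adjusted p = 0.0142) and by 0.59 in LysM (adjusted p = 0.0332) under IL-4c.

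**Figure D5:**
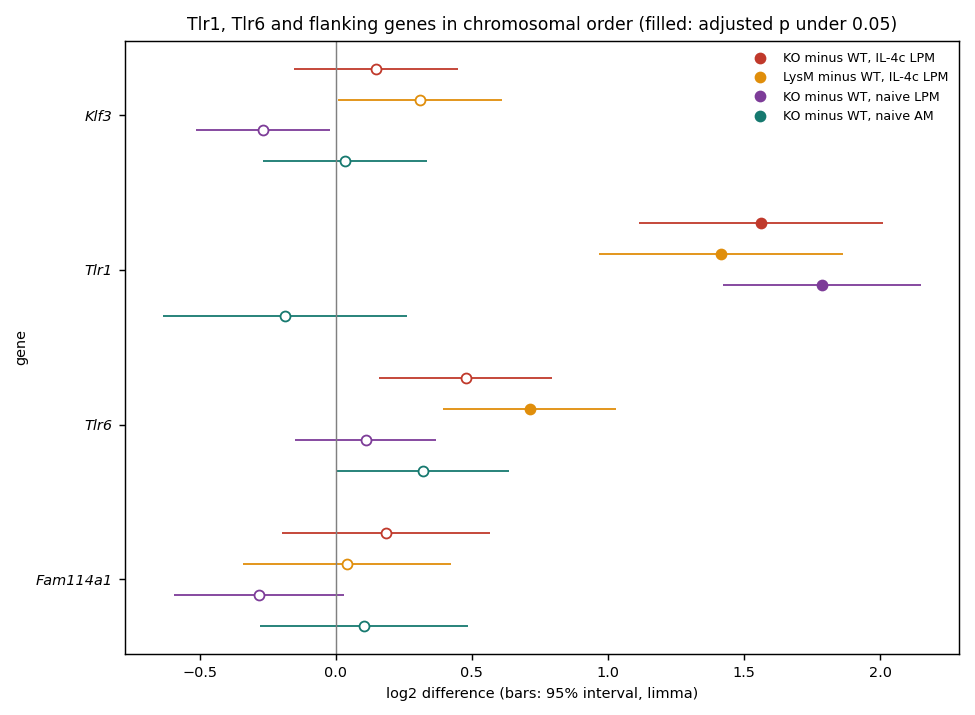
Log2 differences between genotypes (x axis, 95% intervals from limma, filled for an adjusted p under 0.05) of Tlr1, Tlr6 and the genes that flank them, in chromosomal order (y axis). Tlr1 is called in the 3 LPM comparisons and Tlr6 in LysM only, and the flanking Klf3 and Fam114a1 are called in none.

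The genes that serve the receptors were followed in lists of partners, adaptors, signalling proteins and targets, 90 genes of which 77 were tested. Ticam2 stands in both the co-receptor list and the adaptor list, so the counts of these lists share it. Between KO and WT, 0 of the 77 were called in naive AM, and in naive LPM 0 were higher and 1 was lower, against 1.35% of all genes lower. That gene was Ube2n, a ubiquitin-conjugating enzyme of the Traf6 step (-0.61). In IL-4c LPM 9 of the 77 (11.7%) were higher and 2 (2.6%) lower in KO, against 2.12% and 1.5% of all genes. In LysM 16 (20.8%) were higher and 2 (2.6%) lower, against 4.8% and 3.87% of all genes. The median difference over the 77 was 0.183 in KO and 0.178 in LysM, against -0.017 and -0.011 over all genes. Between KO and LysM 0 of the 77 were called.

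Of 7 co-receptors and accessory proteins, Ticam2, an adaptor that carries Tlr4 signals from endosomes, was higher in KO (0.58) and LysM (0.54). Cd180, a relative of the receptors that restrains Tlr4 in macrophages, was lower in KO (-0.55). Cd14, which hands lipopolysaccharide to Tlr4, and Cd36, a co-receptor of Tlr2 with Tlr6, were higher in LysM (1.0 and 1.07). Of 12 trafficking and folding genes, those for the endosomal proteases Lgmn (1.16 in KO and 1.42 in LysM) and Ctsb (0.64 and 0.72), which trim nucleic acid receptors, were higher in both. Rftn1, which helps Tlr4 internalise, was higher in LysM (0.62).

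Further down the pathway, Irf7, the interferon regulatory factor activated by Tlr7 and Tlr9, was higher in KO (1.47) and LysM (2.15), as was Irf8 (0.72 and 0.85), and Irf1 was higher in LysM (0.80). The kinase gene Map3k8 was higher in both (0.64 and 0.73). Of 14 tested target genes, the chemokine gene Ccl2 (3.38 and 4.43) and Nfkbiz, a nuclear regulator of inflammatory genes (0.89 and 0.62), were higher in both, and Il6 was lower in both (-1.05 and -1.67). Ccl3 (2.25) and Ccl4 (1.16) were higher in LysM, and Icam1 (0.77) in KO. Of 14 tested negative regulators none was called in KO, while in LysM Irak3 was higher (0.90) and Cyld lower (-0.73). In the interaction of genotype and IL-4c only Nfkbiz was called among the 77 (1.13, limma adjusted p = 0.043).

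Of the 77, 16 (20.8%) were higher after IL-4c and 15 (19.5%) lower in KO, against 21.9% and 15.4% of all genes, so the KO shares lie near the background. In WT 9 (11.7%) were higher and 28 (36.4%) lower, against 22% and 19.2% of all genes. Of 12 trafficking and folding genes 6 rose and 0 fell in KO, and 2 rose and 2 fell in WT. Of 6 tested adaptors 2 rose and 0 fell in KO, and 0 were called in WT. Of the 7 co-receptors 4 fell and 1 rose in KO, and 5 fell in WT. Cd14 fell by 1.29 in KO and by 2.08 in WT, Cd180 by 1.38 and by 1.02, Ly86 by 0.88 and by 1.33, and Cd36 by 0.72 and by 1.49. Ly96, the lipopolysaccharide-binding partner of Tlr4, fell by 0.84 in WT, while Tlr4 rose. Of 14 tested targets 5 fell and 2 rose in KO, and 9 fell and 3 rose in WT. Cxcl2 fell by 3.67 and by 4.52, Ccl3 by 3.30 and by 4.52, and Nfkbiz by 1.92 and by 3.06, while Ccl5 rose by 2.86 and 2.97 and Il6 by 1.32 and 2.09. Irf8 fell by 1.23 in KO and by 1.91 in WT, and Irf7 rose in KO (1.73).

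Between naive LPM and AM, 19 of the 77 (24.7%) were higher in LPM in KO and 29 (37.7%) lower. Over all genes these shares were 17.3% and 22.8%. In WT 22 (28.6%) were higher and 21 (27.3%) lower, against 21.2% and 17.1% of all genes. Of the 7 co-receptor genes 5 were called higher in LPM in each genotype and 0 lower. Cd14 (-0.17 in KO and 0.07 in WT) and Cd36 (0.38 and 0.28) were not called. The co-receptor genes called in KO were Lbp (4.47), Ly86 (2.93), Ly96 (2.23), Cd180 (1.81) and Ticam2 (0.69). In WT they were Lbp (5.14), Ly86 (3.09), Cd180 (2.25), Ly96 (1.75) and Ticam2 (0.82). Of 12 trafficking and folding genes 4 were higher in LPM and 5 lower in KO, and 4 were higher and 3 lower in WT. Among those higher was Unc93b1, which carries the endosomal receptors out of the endoplasmic reticulum (0.71 in KO and 1.18 in WT). The adaptors Scimp (-4.31 in KO and -4.48 in WT), Pik3ap1 (-3.22 and -3.35) and Myd88 (-0.96 and -0.80), the last the adaptor of all the receptors here but Tlr3, were lower in LPM. Among targets, Il1b (-5.74 in KO and -5.26 in WT) and Tnf (-4.70 and -5.13) were lower in LPM, while Cd40 was higher (2.68 and 1.83). Of 20 tested genes for kinases, ubiquitin ligases and NF-kB, 1 was higher in LPM and 8 lower in KO. In WT 4 of them were higher and 7 lower. Of 5 interferon regulatory factors 3 were higher in KO and 4 in WT, and 0 were lower. Among the genes of these lists, Ikbke (2.77 and 2.28), Irf7 (2.28 and 2.26) and Irf5 (1.32 and 1.38) were higher in LPM and Rel (-2.09 and -1.96) was lower.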

How the data were processed

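The authors deposited 1 table of log2 values per probe set for 16 one-colour Affymetrix mouse gene arrays, which the submitters' processing notes credit to RMA; per the labels, total RNA was labelled with biotin. RMA subtracts background, gives all arrays the same distribution by quantile normalization and combines the probes of a set, so it hides any change in total RNA per cell. No version of it is given in the sources used here. The values ran from 1.04 to 13.84 and carry no detection calls, so a low signal cannot be told from none.

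Sample titles gave each array's group and replicate number. Of 30177 probe sets, 6767 had no gene symbol here, 1621 had several and 21789 had 1; only the last kind was used, and 21698 of it matched the reference gene table (GRCm38.p6). Where a gene had several, the probe set with the highest mean was used; each measured Toll-like receptor had 1. Genes above the array median on at least 2 arrays were tested, 11634 of 19938. Group means over all 16 arrays were fitted with limma 3.58.1 in R 4.3.3 (lmFit, eBayes; degrees of freedom 9 residual and 6.61 prior, within-group SD 0.171 at the median), with Benjamini-Hochberg adjustment over all 11634 genes within each of 11 comparisons and calls at adjusted p under 0.05. The fit was tested on simulated data. Intervals cover 95% and are not adjusted.

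Alternatives were a second quantile normalization, centring on array medians, no dim filter or a stricter one (over 95% of 1035 olfactory receptor probe sets), averaging a gene's probe sets, a variance trend with robust fit, only the compared arrays, a replicate block (also, chosen after seeing the data, among the IL-4c arrays only), and leaving out each array. Named were the receptor genes, their tested neighbours, the called genes of fixed pathway lists (the 5 most changed of a list, and counts for the rest), the 3 genes most like each receptor and cell type markers; some of these are given as counts only. The receptor genes and lists were chosen with earlier results of these data known. Python 3.11.15 and matplotlib 3.10.9 drew the figures.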

Additional observations from a re-analysis of the deposited data

Results flagged for a closer look

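The interaction of genotype and tissue was called for Tlr1, but it compares LPM with background signal in AM. The KO minus WT difference was 1.79 in naive LPM and -0.19 in naive AM, and the interaction of 1.97 (SE 0.27) was called in limma (adjusted p = 0.00327) and under all 18 alternatives, between 1.75 and 2.16. Tlr1 was higher in 3 of 3 KO arrays than in any WT array of LPM. On the AM arrays Tlr1 read 2.97 to 3.09 in KO and 3.11 to 3.33 in WT, under the olfactory receptor level on each of them, so this value does not show that the genotype effect differs between the tissues.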

How the results depend on the processing

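No result changed direction where it was called. For single receptor genes and comparisons, 802 values on other settings stayed on the same side of the threshold, 4 gained and 13 lost their call; with 1 array left out these numbers were 522, 5 and 31. With only the compared arrays in the fit, calls numbered 1 in place of 3 for KO minus WT under IL-4c and 2 in place of 4 for LysM minus WT, where fewer arrays estimate the spread. With a variance trend and robust fit, the interaction of genotype and IL-4c had 1 call in place of 0, Tlr13 (limma adjusted p = 0.0467); the cause was not tested. With 1 array left out, calls among the 9 receptor genes ranged from 0 to 0 for KO minus WT in naive AM and 1 to 1 in naive LPM. Under IL-4c they ranged from 1 to 2 for KO, 1 to 4 for LysM and 0 to 0 for KO minus LysM. For IL-4c minus naive they ranged from 3 to 6 in KO and 4 to 7 in WT, and for LPM minus AM from 6 to 7 in KO and 6 to 7 in WT. For the interactions they ranged from 1 to 1 with tissue and 0 to 2 with IL-4c. A pair without 1 array leaves a lone array, assumed to vary like the other groups. Tlr1 was called under every alternative run for its LPM comparisons of genotype.

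Between IL-4c groups, same-numbered arrays had correlations of deviations from group means of 0.115 to 0.21, with 2 numbers per group. Those of the other group pairs were -0.139 to 0.066. With 2 arrays in a group the deviations mirror each other, so both numbers give the same r, and the IL-4c pairs share arrays. These values cannot settle whether the numbers mark a shared batch. No label gives the numbers a shared source, so the main values use no block. With the replicate block Tlr6 lost its IL-4c call in WT (-0.38, limma adjusted p = 0.06) and Tlr9 its LPM minus AM call in KO (0.35, adjusted p = 0.0705); it changed no other call of a receptor gene. With a replicate block among the IL-4c arrays only, chosen after seeing the data, Tlr13 gained a call in KO minus WT (0.55, adjusted p = 0.0381), and no other receptor gene changed its call between IL-4c groups; calls over all genes numbered 629 for KO, 1233 for LysM and 17 for KO minus LysM, in place of 422, 1009 and 2. Alternatives were run for the receptor genes, not for the pathway lists, neighbours and markers. With 2 arrays in most groups, small differences could not be settled. Tlr1 in AM lies at background signal. Tlr9 lies close to the array medians, and on IL-4c arrays near the olfactory receptor level.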
